A study of Homo sapiens with 6 samples.

Results

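The transcriptome of MDA-MB231 cells under a control siRNA was described from the level of every gene in the 2 libraries labelled siControl, out of 6 libraries in the series. MDA-MB231 is an established human cell line of triple-negative breast cancer, a tumour class without estrogen receptor, progesterone receptor or amplified ERBB2. The series as a whole asked what changes when LSD1, a histone demethylase encoded by KDM1A, is depleted with either of 2 siRNAs, and the depleted libraries were not used here. The control cells grew in DMEM with 10% FCS and received the control siRNA through the transfection reagent interferin. Their total RNA was purified with an RNeasy kit and made into Illumina libraries. The labels do not say whether replicates 1 and 2 came from separate cultures, so the spread between them may be technical. No untransfected cells were analysed here, so all levels are those of cells that had been through transfection.

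Carcinoma cells are commonly placed between an epithelial state, held together by E-cadherin junctions and keratin filaments, and a mesenchymal state with vimentin filaments and looser contacts. MDA-MB231 is widely used as a mesenchymal and invasive line. The genes a cell uses depend on its transcription factors and chromatin regulators. Genes used in most cell types tend to have promoters rich in the dinucleotide CpG, whereas many genes used in a single tissue do not.

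Levels are given as CPM, a gene's counts scaled to a library of 1000000, with replicate 1 first. Since a long gene collects more reads, genes are compared with each other only on CPM per kb, that is CPM divided by the kilobases of the gene's exons, given as the mean of the 2 libraries with the SD over them (n = 2 throughout). KDM1A itself had a level of 158 and 165 CPM, or 51.6 ± 1.51 CPM per kb. This is well above the median of 10.3 CPM per kb among the 11580 genes that reached 1 CPM in both libraries and had a known exon length. The libraries held 22047738 and 23624089 counts. A count of 0 allows up to 3 counts, or 0.136 and 0.127 CPM, and this limit covers counting error only.

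Most of the counts came from genes at 10 to 1000 CPM rather than from the few above 1000 CPM. Of 23368 genes in the table, 11974 (51.2%) reached 1 CPM in both libraries and 7020 (30.0%) had 0 counts in both. These shares are the background for every count of members below. The 2734 genes at 100 to 1000 CPM held 62.4% of the counts and the 6583 genes at 10 to 100 CPM held 28.1%. Only 47 genes exceeded 1000 CPM, and they held 8.23%. The 10 most abundant genes took 3.03% of the counts in each library (Wilson 95% intervals 3.025% to 3.039% and 3.019% to 3.033%, counting error only). In replicate 1, 1259 genes made up the first 50% of the counts and 5704 the first 90%; in replicate 2 these were 1249 and 5682. Protein-coding genes, 18772 of the table, carried 98.5% of the counts, and 60.3% of them reached 1 CPM in both libraries. The share was 13.5% of 312 lincRNA genes and 19.3% of 192 antisense genes. Of 1220 microRNA precursors 0.328% reached it, and of 354 small nucleolar RNA genes 5.65%.

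**Figure D1:**
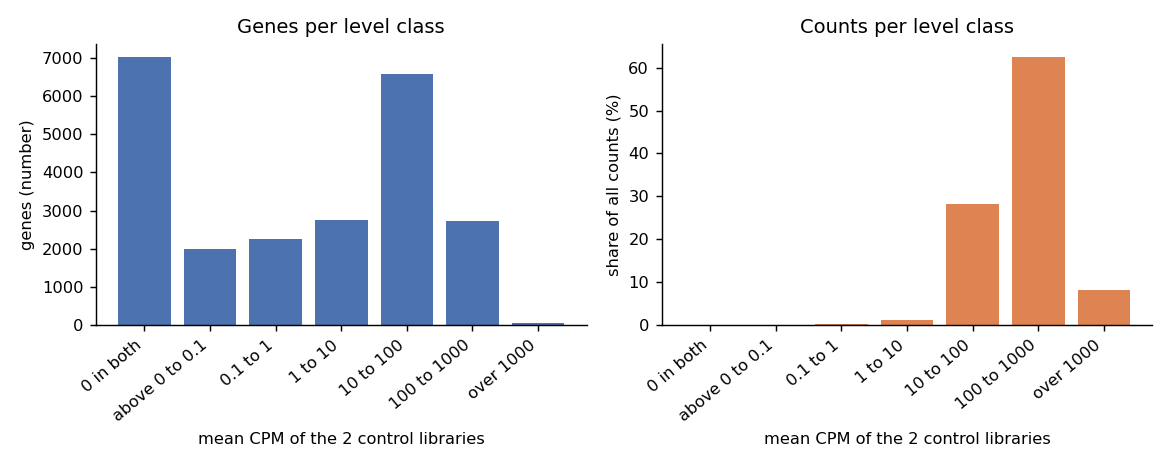
Number of genes (left, bars) and share of all counts in percent (right, bars) in 7 classes of level, by the mean CPM of the 2 control libraries. The 7020 genes at 0 form the tallest bar on the left, while the 2734 genes at 100 to 1000 CPM hold 62.4% of the counts on the right.

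Promoter sequence moved with level. For 15520 genes the RefSeq promoter on GRCh38.p14 was at hand, 300 bases that run from 250 before the RefSeq start to 50 after it. Its CpG content was taken as the observed number of CG dinucleotides over the number expected from its C and G. The median rose over the classes from 0.311 for 3484 genes with 0 counts in both libraries to 0.886 for 2337 genes above 100 CPM. A value of at least 0.6, called CpG-rich here, was found in 28.4% of the silent promoters, in 74.5% at 1 to 10 CPM and in 90.1% above 100 CPM, against 66.4% of all. The hexamer TATAAA, the core of the TATA box, lay on either strand of 18.9% of the silent promoters and of 4.96% above 100 CPM, against 9.39% of all. CAGGTG, an E-box that ZEB and Snail proteins bind, lay on either strand in 23.4% of the silent promoters, against 19.8% of all. Its share was nearly the same, 22.9%, at 1 to 10 CPM. Lower shares were seen only at higher levels, with 16.9% at 10 to 100 CPM and 14.9% above 100 CPM. A match is a description of letters, not a bound site.

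The pattern had exceptions in both directions, shown here by 4 promoters chosen after their values were seen. Each line gives the 250 bases before the RefSeq start on GRCh38.p14, written 5′ to 3′ on the gene's strand, with every CG in capitals. The first pair are abundant genes and the last pair silent ones. Where transcription starts in these cells was not measured.
HSPA8: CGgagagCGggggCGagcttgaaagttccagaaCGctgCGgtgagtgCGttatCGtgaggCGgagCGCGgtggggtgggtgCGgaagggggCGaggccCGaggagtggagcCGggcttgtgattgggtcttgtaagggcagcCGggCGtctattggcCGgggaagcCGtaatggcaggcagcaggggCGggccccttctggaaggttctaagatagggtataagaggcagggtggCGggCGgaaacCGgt
VIM: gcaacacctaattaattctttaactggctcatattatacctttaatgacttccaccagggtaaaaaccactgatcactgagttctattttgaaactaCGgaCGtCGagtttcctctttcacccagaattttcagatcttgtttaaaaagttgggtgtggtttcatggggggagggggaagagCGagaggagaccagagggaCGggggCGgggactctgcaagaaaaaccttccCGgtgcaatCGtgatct
HOXA7: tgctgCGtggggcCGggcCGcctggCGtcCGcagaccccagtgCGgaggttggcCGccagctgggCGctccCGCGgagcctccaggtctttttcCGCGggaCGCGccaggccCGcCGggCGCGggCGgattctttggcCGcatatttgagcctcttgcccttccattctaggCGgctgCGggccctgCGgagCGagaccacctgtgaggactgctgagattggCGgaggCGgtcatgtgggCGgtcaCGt
KRT5: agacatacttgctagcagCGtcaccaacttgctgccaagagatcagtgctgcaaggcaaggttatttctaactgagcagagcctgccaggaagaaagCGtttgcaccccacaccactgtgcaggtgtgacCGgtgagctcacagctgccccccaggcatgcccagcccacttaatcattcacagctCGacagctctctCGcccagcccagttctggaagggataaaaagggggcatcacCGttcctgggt
HSPA8, a constitutive chaperone at 3012 and 2917 CPM, has 22 CG in the stretch shown (chr11:123062137-123062386, minus strand) and an observed over expected value of 0.938 in the 300-base window. VIM, the intermediate filament gene vimentin at 3569 and 3576 CPM, has 8 (chr10:17227991-17228240, plus strand) and a value of 0.584. HOXA7, a homeobox gene with 0 counts in both libraries, has 28, the most of the 4 (chr7:27156676-27156925, minus strand; 0.906). KRT5, a basal keratin also with 0 counts, has 6 (chr12:52520395-52520644, minus strand; 0.301). Among these 4, 1 silent gene had a value above 0.6 and the other a value below it.

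Developmental transcription factors and tissue families took different shares of the silent promoters with and without CpG richness, though most silent promoters belonged to neither. Of 991 silent CpG-rich promoters, 4.04% belonged to the homeobox, SOX, FOX, PAX, T-box, GATA and TFAP2 families of developmental transcription factors, against 0.722% of 2493 silent promoters that were not CpG-rich and 0.478% of 8165 expressed CpG-rich promoters. Families of sensory receptors, skin proteins and other tissue products made up 0.505% of the silent CpG-rich promoters and 16.8% of the other silent ones. This split was added after the values were seen and was not tested.

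**Figure D2:**
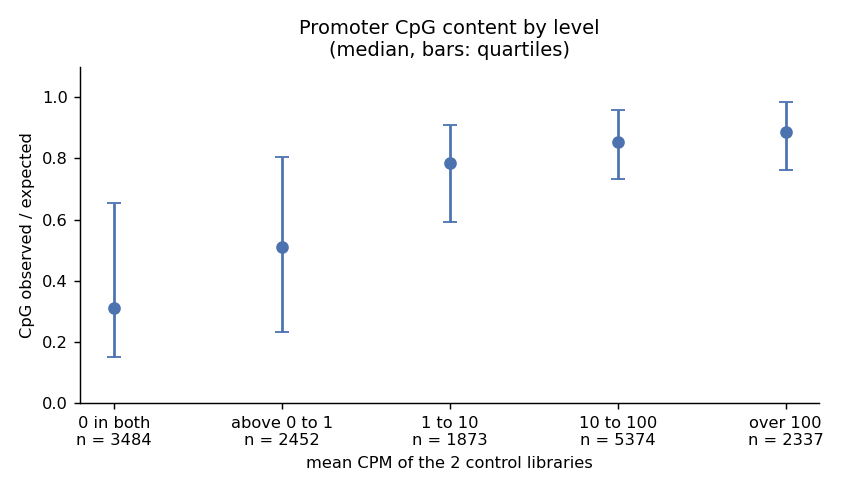
Observed over expected CpG (vertical axis, a ratio with no unit) of 300-base RefSeq promoters for 5 classes of mean CPM in the 2 control libraries; points are medians over genes and bars run from the lower to the upper quartile. The median goes from 0.311 for the 3484 promoters of silent genes to 0.886 for the 2337 promoters of genes above 100 CPM.

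The most abundant messages encoded cytoskeleton, chaperones, glycolysis and translation. By CPM, which ranks the share of reads and not of molecules, ACTB, the beta-actin gene, led with 5305 and 5114 CPM. HSP90AA1, a stress-inducible HSP90 chaperone, followed with 5043 and 4930 CPM, and then VIM. Also among the first 20 were HSPA8, the glycolytic enzyme GAPDH (2519 and 2649 CPM), the tubulin TUBB, the gamma-actin ACTG1 and the glycolytic enzymes ENO1 and PKM2. Further down the same 20 came the poly(A)-binding protein PABPC1, HSP90AB1, the endoplasmic reticulum chaperone CANX, the nucleolar protein NCL, the translation factors EIF4G2 and EEF2, the splicing regulator HNRNPA2B1, the actin-binding PFN1, the fatty acid desaturase SCD and the chaperonin subunit CCT5.

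Per kb of exon the order changed, and short genes came up. ACTB stayed first at 2617 ± 67.9 CPM per kb, with 2665 and 2569 in the libraries. TMSB10, a small actin-binding thymosin, was next at 2522 and 2524 CPM per kb, then VIM at 1911 and 1915. The ferritin light chain FTL, an iron store, stood at 1560 and 1720 CPM per kb. Neighbours down to HSP90AA1 (1252 and 1224 CPM per kb) did not overlap between genes in these 2 libraries, but GAPDH and the ribosomal protein RPL8 did, as did HSPA8 and RPL30, and ACTG1, ENO1, PFN1 and the galectin LGALS1 lay together within 911 to 942 CPM per kb. Others of the first 20 were LDHB, a lactate dehydrogenase subunit, the ribosome-associated scaffold GNB2L1, the ribosomal proteins RPS16 and RPS18, the tubulin TUBA1B and the ATP synthase subunit ATP5B. Only 8 genes stood in the first 20 on both scales, and the median exon length was 3335.5 bases by CPM and 1733 by CPM per kb.

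Whole groups behind these leaders were expressed. All 42 cytoskeleton genes, all 17 glycolysis enzymes, all 29 chaperones and all 22 iron and antioxidant genes reached 1 CPM in both libraries, against the background of 51.2%. Their medians were 145, 109, 199 and 109 CPM per kb, against 1.5 over the 19990 genes of the table with a length of at least 300 bases. Below the leaders of their groups stood the chaperonin subunit CCT7 (580 ± 17.3 CPM per kb), the aldolase ALDOA (435 ± 7.54), and the peroxide-reducing PRDX1 (464 ± 16.7). Of 86 cytosolic ribosomal protein genes 80 reached 1 CPM and of 76 mitochondrial ones all did, with medians of 135 and 44.8 CPM per kb. Noncoding RNAs were modest. SNHG6, a host of small nucleolar RNAs, led 21 of them with 69.1 ± 3.47 CPM per kb, and MEG3 and HOTAIR had 0 counts.

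Some zeros and low values in these groups concern genes whose reads are hard to assign. EIF4A1, the abundant helicase of translation initiation, had 0 counts in both libraries, and the readthrough entry SENP3-EIF4A1 that overlaps it had 0.136 and 0.127 CPM. The elongation factor EEF1A1 (684 and 732 CPM), the ferritin heavy chain FTH1 (212 and 218 CPM) and the thymosin TMSB4X (241 and 256 CPM) have many processed pseudogenes. Levels of all of these are uncertain. The 218 genes that are part of a readthrough entry reached 1 CPM in 54.1% and had 0 counts in 25.2%. The background shares over all genes were 51.2% and 30.0%, and those over protein-coding genes 60.3% and 22.9%. Whether overlap with a readthrough entry lowers counts was not tested. Only 6 of 72 replication-dependent histone genes reached 1 CPM. Messages of such genes carry no poly(A) tail, and whether this bears on their counts was not tested. How reads with several matches were counted is not given in the sources used here.

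The messages of the estrogen and progesterone receptors were absent or near the limit of detection. ESR1, the estrogen receptor, had 1 count in replicate 1 and 0 in replicate 2. PGR, the progesterone receptor, had 0 in both. ERBB2 was expressed at 59.8 and 54.2 CPM, and at 10.1 ± 0.694 CPM per kb it lay next to the median of expressed genes. EGFR, another receptor of that family, stood at 119 and 101 CPM (9.72 CPM per kb), whereas ERBB3 reached only 2.86 and 1.74 CPM. On CPM per kb the ranges of EGFR and ERBB2 over the 2 libraries overlapped.

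Mesenchymal genes were the most abundant of the lineage lists. Of 22 members, 16 reached 1 CPM in both libraries (background 51.2%), and the median was 10.3 CPM per kb. After VIM came LGALS1 (927 ± 4.19 CPM per kb) and the secreted matrix-cell proteins CYR61 (412 ± 24.7) and CTGF (316 ± 5.96), which are known targets of the YAP pathway. AXL, the receptor tyrosine kinase for GAS6, stood at 1586 and 1473 CPM, or 312 ± 16.3 CPM per kb. The ecto-nucleotidase NT5E (935 and 916 CPM) and the hyaluronan receptor CD44 (723 and 698 CPM) were also high, while CD24, a mucin-like surface protein low in CD44-high breast cancer cells, was at 6.62 and 5.59 CPM. Not all of the list was on. CDH2, or N-cadherin, had 0.0907 and 0.212 CPM, which is 2 and 5 counts, and CDH11 and the gelatinase MMP2 had 0. FN1, or fibronectin, was at 132 and 104 CPM, and S100A4 at only 1.77 and 2.84 CPM.

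Cadherins were few. CDH1, E-cadherin, had 1 count in each library. Of 23 cadherin genes only 3 reached 1 CPM, and 10 had 0 counts (background 30.0%). CDH4, or R-cadherin, was the highest with 175 CPM in both libraries, or 23.8 ± 0.0226 CPM per kb, followed by CDH24 (23.6 and 20.5 CPM) and CDH18 (8.84 and 8.64 CPM). The cytoplasmic partners of cadherins were uneven. CTNNA1, alpha-catenin, stood high at 562 and 537 CPM (140 ± 4.47 CPM per kb), as did CTNNB1, beta-catenin, at 534 and 539 CPM (68.3 ± 0.419). CTNND1, p120-catenin, had few counts, at 0.611 ± 0.0367 CPM per kb. How reads that match several genes were counted is not given, so the CTNND1 level is uncertain. JUP, plakoglobin, was low at 1.99 ± 0.339 CPM per kb. Among other junction genes the tight junction scaffold TJP1 (145 and 134 CPM) and the desmosomal cadherin DSG2 (178 and 171 CPM) stood high. In all, 20 of 32 epithelial junction genes reached 1 CPM, with a median of 0.892 CPM per kb, and PKP1 and RAB25 had 0 counts.

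Epithelial markers were a mixture of clear expression and absence. KRT18 and KRT8, the keratin pair of simple epithelia, stood at 262 and 268 CPM and at 236 and 238 CPM, or 132 ± 2.19 and 51.7 ± 0.165 CPM per kb. KRT19, another simple epithelial keratin, had 0 counts, and KRT7 was at 8.94 and 9.27 CPM. The adhesion protein EPCAM had 10.4 and 12.6 CPM, CLDN7 14.2 and 13.7, and CLDN4 9.34 and 8.09. The luminal regulators GATA3 and FOXA1 stood low at 2.81 and 2.54 CPM and at 5.53 and 5.16 CPM, while XBP1, of the secretory stress response, had 82.7 and 75.9 CPM. Of 19 luminal markers 9 reached 1 CPM. In bulk RNA, a low level in every cell and a higher level in fewer cells cannot be told apart, and neither can fewer cells of a type and less RNA per cell.

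Basal epithelial markers split by the kind of gene. The basal keratins KRT5 and KRT6A had 0 counts, KRT14 had 0 and 1, and KRT17 had 0 and 0.169 CPM. Components of the laminin attachment of epithelial cells were present instead, with LAMB3 at 192 and 188 CPM (42.3 ± 0.528 CPM per kb) and ITGB4 at 21.5 and 19 CPM. In all, 5 of 12 basal markers reached 1 CPM. Over the whole keratin families, 19 of 28 type I and 19 of 26 type II genes had 0 counts, and beside the simple keratins only KRT80 (52.9 and 58.5 CPM) and KRT10 (26.4 and 24.7 CPM) exceeded 10 CPM in both libraries.

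Transcription factors of the epithelial to mesenchymal transition differed widely in level. The repressor ZEB1 had 149 and 138 CPM (22.3 ± 1.21 CPM per kb) and TCF3, the E protein E2A, 154 and 144 CPM (26.3 ± 1.18); their ranges on CPM per kb lay close but did not overlap. ZEB2, the related repressor, had 11.2 and 11.4 CPM, or only 0.846 CPM per kb. SNAI2, or Slug, had 8.57 and 11.3 CPM, SNAI1, or Snail, 4.22 and 3.94 CPM, and TWIST1 4.45 and 5.08 CPM. TWIST2 and GSC had 0 counts, as had the epithelial regulators OVOL1 and GRHL2. Of 19 such genes 8 reached 1 CPM.

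Marker genes of other tissues were at or near 0 with a few exceptions, apart from the nerve and glia list. The blood list had 2 of 16 genes at 1 CPM, of which the lysosomal protein CD68 stood at 213 and 223 CPM and CD8A at 1.41 and 1.74 CPM, while the leukocyte gene PTPRC, the T cell genes CD3E and CD3D, and HBB had 0 counts. The endothelial list had 2 of 8, with the orphan receptor TIE1 at 191 and 190 CPM and KDR, the VEGF receptor, at 1.27 and 1.02, beside CDH5 at 0.454 and 0.889 CPM and TEK at 0. The fibroblast list had 1 of 9, the collagen COL1A1 at 6.58 and 5.25 CPM, with COL1A2, DCN and LUM at 0. Nerve and glia markers were at 1 CPM in 5 of 10, near the background of 51.2%. They were led by TUBB3 (114 and 108 CPM), the myelin gene MBP (33.5 and 28.1 CPM) and RBFOX3 (10.3 and 11.8 CPM). OLIG2 and NEUROD1 had 0. Of 12 liver, gut and pancreas markers 1 reached 1 CPM, and ALB and INS had 0. No gene of 10 muscle markers or 14 pluripotency and germ cell genes reached it, with MYH1 and NANOG at 0. Of 27 cancer-testis antigens 3 reached 1 CPM, led by MAGEA3 at 5.67 CPM in both libraries. MAGEA3, MAGEA6 and MAGEA12 are close copies, so their reads may be split.

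**Figure D3:**
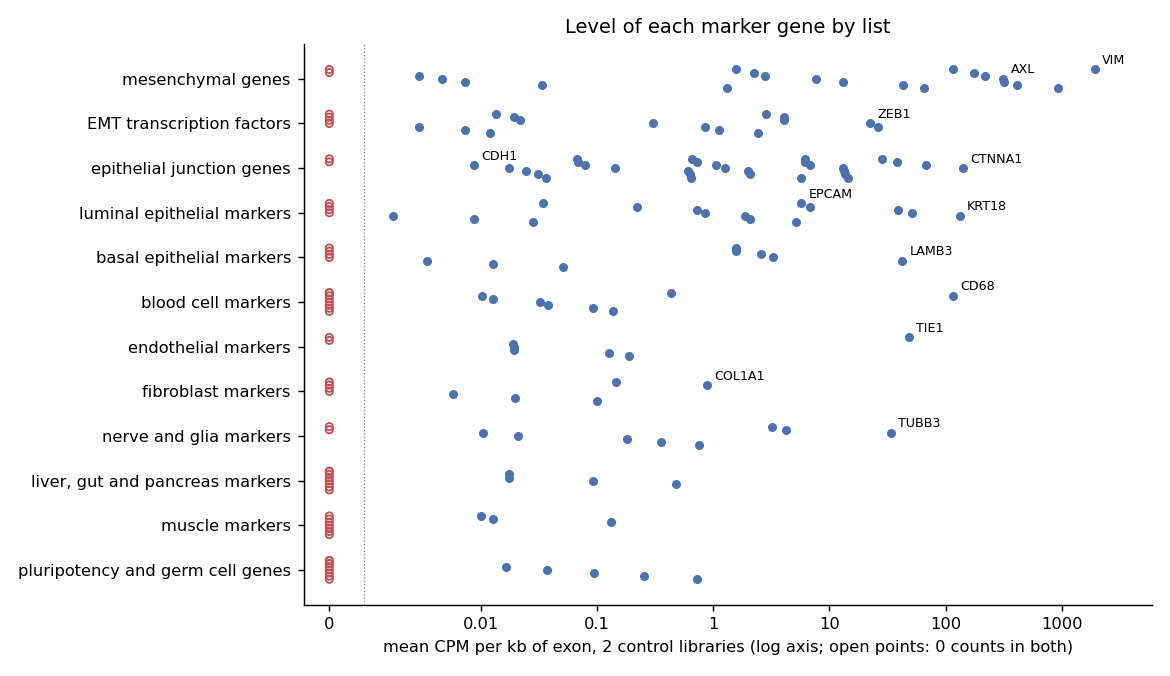
Mean CPM per kb of exon in the 2 control libraries (horizontal log axis, with genes at 0 counts in both as open points at the left) for each gene of 12 marker lists, one point per gene with a length. VIM is the highest at 1913 CPM per kb, CDH1 lies below 0.01, and CD68, TIE1 and TUBB3 stand far to the right of the other genes of their lists.

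In 26 families other than the ZNF zinc fingers, 205 of 391 factors (52.4%) reached 1 CPM in both libraries and 107 (27.4%) had 0 counts, which is close to the shares of all genes. Pooled, the developmental families had fewer members at 1 CPM than this share and the remaining families more. Of 191 homeobox, SOX, FOX, PAX, T-box, GATA and TFAP2 genes 63 (33%) reached 1 CPM and 82 (42.9%) had 0 counts. Of the 200 others 142 (71%) reached it and 25 (12.5%) had 0. Single families did not all follow, since TFAP2 had 3 of 5 at 1 CPM and ETS only 15 of 28. ZNF genes, the largest family, reached 1 CPM in 423 of 529.

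The highest factors per kb were those of growth, stress and mitogen signals. FOSL1, an AP-1 subunit, led with 371 and 377 CPM, or 203 ± 2.13 CPM per kb. MYC, a driver of growth and ribosome synthesis, had 313 and 351 CPM (111 ± 9.10 CPM per kb), ETS1 572 and 609 CPM (107 ± 4.78), and FOXM1, a factor of mitosis, 369 and 379 CPM (102 ± 2.07). The ranges of MYC and ETS1 over the libraries overlapped, and so did those of ETS1 and FOXM1. Next per kb were TFDP1 (99.5 ± 1.06) and E2F4 (86.0 ± 2.26), partners in cell cycle control, and further down the AP-1 factor JUN (59.3 ± 0.851), TEAD4 (53.6 ± 1.67) and STAT3 (50.3 ± 0.722). Families with nearly all members at 1 CPM were AP-1 (11 of 12, BATF at 0), STAT (6 of 7), NF-kappaB (5 of 5, led by RELA at 139 and 132 CPM), TEAD and YAP (6 of 6, with YAP1 at 227 and 208 CPM) and E2F (10 of 11).

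Among nuclear receptors 28 of 48 reached 1 CPM and 9 had 0 counts. The oxysterol receptor NR1H2 was the highest per kb at 49.1 ± 0.191, then the shared partner RXRA at 31.0 ± 2.03 and the orphan receptor ESRRA at 25.8 ± 0.421. The clock repressor NR1D2 and NR3C1, the glucocorticoid receptor (165 and 162 CPM), were close behind at 20.8 ± 0.136 and 20 ± 0.32 CPM per kb. The liver factor HNF4A and the ESRRA relatives ESRRB and ESRRG had 0 counts. The absence of the estrogen and progesterone receptors was thus not shared by the family at large.

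The HOX genes, which mark position along the body axis, were nearly silent in the HOXA cluster and expressed in a minority of members in the other clusters. HOXA had no member of 11 at 1 CPM and 10 at 0 counts, with a summed level of 0 and 0.339 CPM. HOXB had 4 of 10 at 1 CPM and summed to 37.8 and 39.2 CPM, mostly HOXB9 at 26.8 and 26.7 CPM. HOXC (3 of 9) summed to 9.07 and 10.5 CPM and HOXD (3 of 9) to 11.7 and 12.9 CPM, led per kb by HOXC5 (2.04 and 2.67 CPM) and HOXD4 (5.31 and 6.05 CPM). The view by cluster was added after the values were seen.

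Other developmental families had single members standing well above the rest. SOX9, a factor of cartilage and progenitor cells, had 104 and 97.5 CPM among 5 of 19 SOX genes at 1 CPM, while SOX1, SOX10 and SOX11 had 0. GATA2 stood at 35.2 and 37.8 CPM. POU2F2, best known from B cells, had 54 and 51.9 CPM, and NKX2-5, known for the heart, had 14 and 12.6 CPM. Of 17 T-box genes only TBX1 (13.9 and 12.5 CPM) and MGA (67 and 54.5 CPM) reached 1 CPM, and of 9 PAX genes 3 did, led by PAX9 at 4.40 and 4.57 CPM. TFAP2C, a factor of breast epithelium, had 19.2 and 22.2 CPM, and RUNX3 had 0 counts while its partner CBFB had 105 and 111 CPM.

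**Figure D4:**
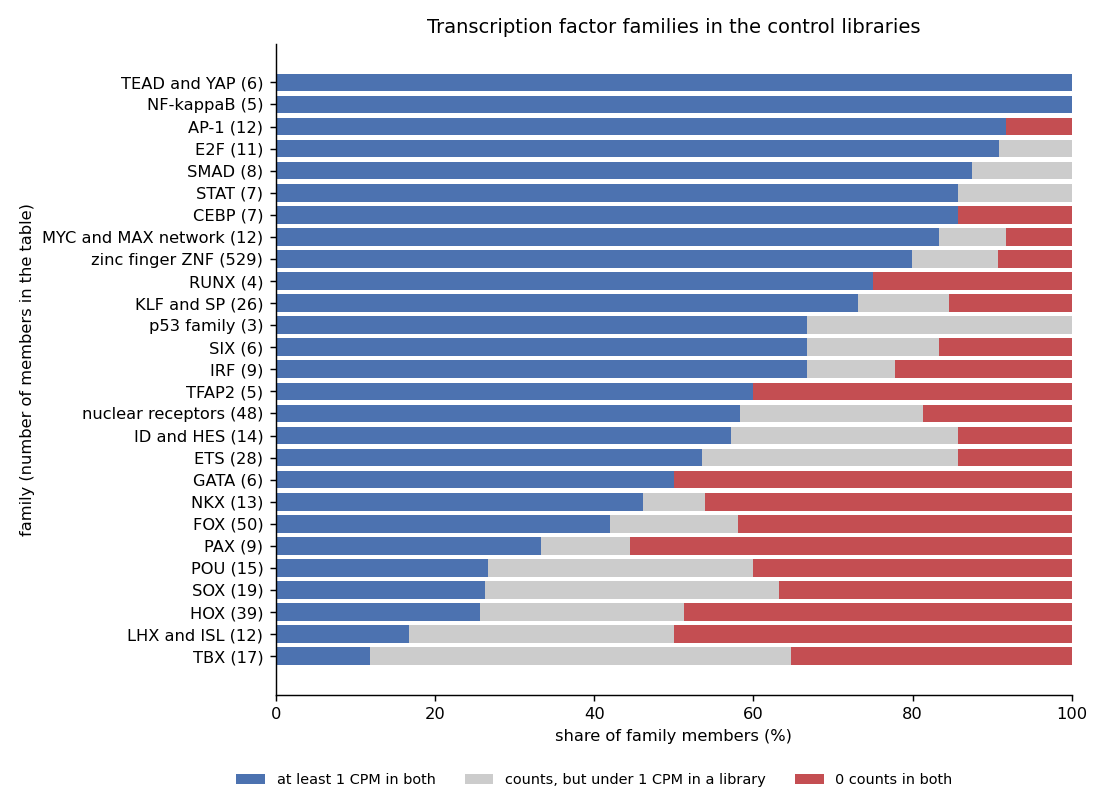
Share of members in percent (horizontal axis) of 27 transcription factor families, with the number of members in brackets, that reached 1 CPM in both control libraries (blue), had counts but missed 1 CPM in a library (grey) or had 0 counts in both (red). TEAD and YAP and NF-kappaB are entirely blue, whereas the T-box, LIM homeobox, HOX, SOX and POU families at the bottom have under 30% blue.

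Receptor tyrosine kinases ranged from AXL, among the higher genes of the cells, to genes with no count. Of 58 genes 27 (46.6%) reached 1 CPM and 11 (19%) had 0 counts, so the first share was near the background of 51.2%. Their median was 0.103 CPM per kb. AXL was far the highest, followed per kb by EPHA2, an ephrin receptor (299 and 304 CPM; 76.1 ± 0.95), TIE1 (47.9 ± 0.167), the Wnt co-receptor RYK (117 and 121 CPM; 40.5 ± 1.01) and MET, the receptor for hepatocyte growth factor (180 and 166 CPM; 25.9 ± 1.52). KIT, FGFR2 and NTRK2 had 0 counts. Of 38 growth factors for such receptors 23 reached 1 CPM. HBEGF, a ligand of EGFR, led with 106 and 118 CPM (46.9 ± 3.38 CPM per kb), and GAS6, the ligand of AXL, had 42.3 and 41.6 CPM (16.8 ± 0.2). Ligand and receptor messages were thus present together for both EGFR and AXL.

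Of the TGF-beta, matrix and Wnt receptors, the highest members had levels well above the median of expressed genes. TGFBR2, the type II TGF-beta receptor, had 445 and 436 CPM, or 93.7 ± 1.26 CPM per kb, and its co-receptor ENG 149 and 146 CPM; 11 of 14 receptors of the family reached 1 CPM and AMHR2 had 0. SMAD3, which carries the signal, had 177 and 182 CPM. Of 26 integrins 14 (53.8%) reached 1 CPM, near the background of 51.2%, and their median was 0.26 CPM per kb. The shared beta subunit ITGB1 was at 636 and 607 CPM (158 ± 5.30 CPM per kb), with the laminin-binding alpha subunits ITGA3 (358 and 349 CPM) and ITGA6 (292 and 269 CPM) and the fibronectin-binding ITGA5 (158 and 143 CPM) below it. The lymphocyte integrin ITGAL and ITGB6 had 0. Notch and Wnt receptors were at 1 CPM in 14 of 19, led per kb by FZD2 (47.5 ± 2.35) and FZD6 (39.9 ± 1.90).

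Cytokine signalling was unevenly expressed between receptors and ligands. Of 32 cytokine and interferon receptors 21 reached 1 CPM, and the 5 highest per kb, IFNGR1, IL13RA1, IL6ST, IL4R and OSMR, lay between 16.2 and 18.7 CPM per kb. IL6ST, the signal chain shared by the IL6 family, had 164 CPM in both libraries. Chemokine receptors were nearly absent, with 12 of 19 at 0 counts and only CXCR4, the receptor for CXCL12, at 1 CPM (6.35 and 4.23). Of 35 cytokines and chemokines 12 reached 1 CPM and 13 had 0. LIF, a ligand that signals through IL6ST, led with 42.2 and 51.4 CPM (11.8 ± 1.64 CPM per kb). CSF1, IL18, CXCL1 and IL1A followed at means of 6.74 to 7.68 CPM per kb. In a list of 42 G protein-coupled receptors for proteases, lipids and nucleotides, 24 reached 1 CPM (15 reached 2 CPM), led per kb by the adenosine receptor ADORA2B (108 and 120 CPM; 65.8 ± 5.14) and F2RL1, a protease-activated receptor (69.9 and 72.9 CPM; 24.5 ± 0.738).

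Chromatin regulators were expressed almost throughout, at moderate levels. In the LSD1 and CoREST complex, which removes methyl and acetyl groups from histones, 15 of 18 genes reached 1 CPM. HDAC1 stood at 146 and 149 CPM (69.5 ± 1.16 CPM per kb), HMG20B at 87.7 and 83.1 (53.5 ± 2.01), KDM1A at 51.6 ± 1.51 CPM per kb, HDAC2 at 386 and 390 CPM (38.3 ± 0.312) and the scaffold RCOR1 at 161 and 160 CPM (27.9 ± 0.103). The ranges of HMG20B and KDM1A on CPM per kb overlapped. The blood repressor GFI1B, which recruits the complex, had 0 counts. Within 22 histone lysine demethylases, 21 at 1 CPM, KDM1A was the highest per kb, ahead of KDM2A at 34.6 ± 0.297.

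The other complexes were as complete. All 28 Polycomb proteins reached 1 CPM, with EZH2, the H3K27 methyltransferase, at 76.5 and 84.5 CPM and its partners SUZ12 and EED at 134 CPM in both libraries and at 88.5 and 86.6 CPM. NuRD had 13 of 14 subunits at 1 CPM, led by the histone-binding RBBP7 (119 ± 0.618 CPM per kb), and SWI/SNF 21 of 22, led by ACTL6A (102 ± 3.08). The 1 SWI/SNF gene at 0 was ACTL6B, the neuronal counterpart of ACTL6A. Histone lysine methyltransferases had 31 of 33 at 1 CPM, with WHSC1, an H3K36 methyltransferase, at 665 and 667 CPM; the muscle gene SMYD1 and the meiosis gene PRDM9 had 0. Deacetylases and sirtuins had 17 of 18, acetyltransferases and BET readers 14 of 15 and arginine methyltransferases 8 of 9, with PRMT1 at 349 and 371 CPM (189 ± 7.97 CPM per kb). DNA methylation enzymes had 13 of 14. DNMT1, the maintenance methyltransferase, was at 402 and 392 CPM (72.8 ± 1.33 CPM per kb), and the germ cell cofactor DNMT3L had 0. The genes at 0 in these lists are ones known from a single tissue or from germ cells.

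A few genes of matrix and its turnover were high. Of 46 matrix genes 30 reached 1 CPM, with a median of 1.77 CPM per kb against 1.5 over all genes, and after CYR61, CTGF and LAMB3 the highest per kb were THBS1 (35.1 ± 1.85) and the laminin LAMB1 (25.3 ± 0.882). Among 43 collagens 17 (39.5%) reached 1 CPM, below the background of 51.2%, led by the basement membrane chain COL4A2 (308 and 273 CPM; 22.4 ± 1.93 CPM per kb), with the fibrillar COL1A2 at 0 counts. Of 39 proteases and inhibitors 28 did. Among the highest were the lysosomal protease CTSD (312 and 315 CPM; 148 ± 1.23 CPM per kb) and TIMP2, a metalloprotease inhibitor (259 and 247 CPM; 62.2 ± 2.12). MMP2, MMP7 and MMP8 had 0 counts. In the S100 family of calcium-binding proteins 8 of 19 reached 1 CPM, and S100A6 was highest at 414 and 412 CPM (487 ± 1.42 CPM per kb), while the skin gene S100A7 and the inflammation gene S100A8 had 0.

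The cells carried a full proliferation programme. All 32 proliferation genes reached 1 CPM, with a median of 84.0 CPM per kb. CCNB1, the mitotic cyclin, was highest per kb at 443 and 483 CPM (213 ± 13.1), followed by the replication helicase subunit MCM3 at 629 and 659 CPM (200 ± 6.64), and this pair overlapped between libraries. AURKB, a mitotic kinase, had 206 and 227 CPM, and MKI67 665 and 577 CPM. Of 25 oncogenes 24 reached 1 CPM and MYCN had 0. The survival gene BCL2L1 had 730 and 719 CPM (253 ± 2.80 CPM per kb), CCND1, or cyclin D1, 543 and 531 CPM (122 ± 1.89), and BRAF 13.0 and 12.4 CPM. Of 30 tumour suppressors 26 reached 1 CPM, and among them RB1, which holds back entry into S phase, had 237 and 220 CPM. Counts give the amount of these messages and nothing about mutations in them.

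The tumour suppressors at 0 counts were CDKN2A, CDKN2B and MTAP, which lie side by side on chromosome 9. CDKN2A and CDKN2B encode inhibitors of the cyclin D kinases, and MTAP an enzyme of methionine salvage that most cells express. In the order of the genome they fell in a run of 26 genes, from PTPLAD2 to ELAVL2 with microRNAs left out, that held at most 1 count each. KLHL9 had that count, in replicate 2, and 17 of the 26 were interferon genes, which are silent in most unstimulated cells. The nearest genes on either side were expressed, though KIAA1797 only at 1.95 and 2.03 CPM. Beyond MLLT3, SLC24A2 again had only 0 and 1 counts. MLLT3 had 424 and 414 counts and KIAA1797 43 and 48 on one side, and TUSC1 244 and 285, C9orf82 1277 and 1425 and PLAA 2143 and 2451 on the other. Whether the DNA of the run is present was not tested. The run was drawn after the values were seen, and the genes around CDKN2A were listed with knowledge of this cell line.

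**Figure D5:**
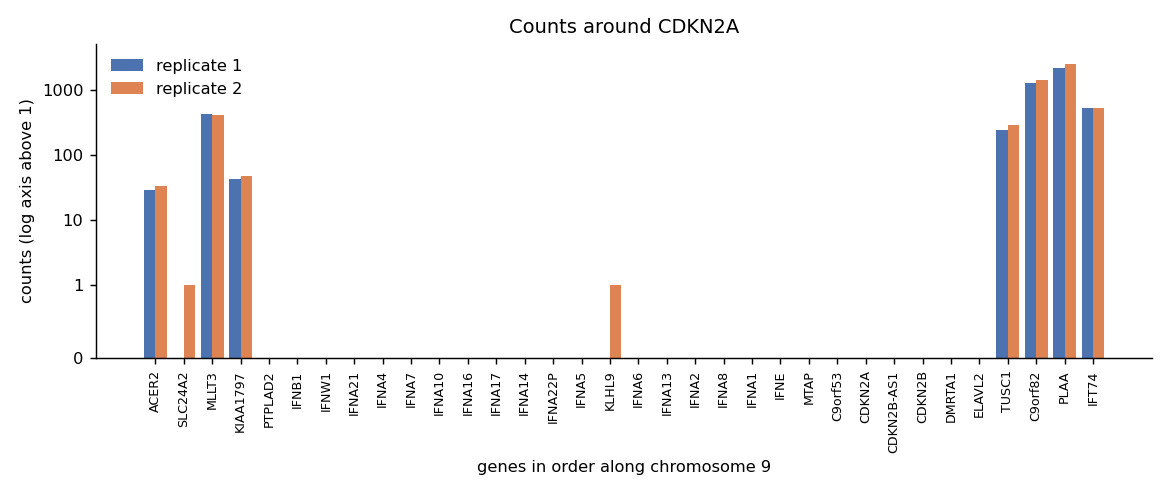
Counts per gene (vertical axis, log above 1) in replicates 1 and 2 of the control for consecutive genes along chromosome 9 in the table, microRNAs left out, named in order with no distance shown. The 26 genes from PTPLAD2 to ELAVL2 have no bar except 1 count of KLHL9, between MLLT3 and KIAA1797 at the left and TUSC1, C9orf82 and PLAA at the right.

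Whole families with use in single tissues were silent. Olfactory receptors had 354 of 375 genes at 0 counts in both libraries (background 30.0%) and none at 1 CPM. Of 88 keratin-associated proteins of hair 80 were at 0, and all 38 beta-defensins, all 18 late cornified envelope genes of skin and all 22 PRAME family genes were. The 13 alpha interferons at 0 all lie in the run on chromosome 9. Bitter taste receptors were less uniform, with 16 of 24 at 0, and the highest of them, TAS2R20, had 0.544 and 0.635 CPM. Clustered protocadherins were the exception among the families of this kind, since 18 of 55 reached 1 CPM and only 4 had 0 counts; PCDHGC3 led with 17.6 CPM in both libraries. Their gene models share exons, so reads can be split between them. Of 23 claudins 10 had 0 counts, and CLDN12 was the highest at 81.3 and 72.4 CPM.

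The 2 control libraries were close to each other. Among 9364 genes averaging 10 CPM or more, 0 differed by 2-fold and 1, BANP, by 1.5-fold, and the median absolute log2 ratio was 0.06. The common biological coefficient of variation was 3.83% over 12785 genes with at least 10 counts in both libraries. Their counts still differed by more than sampling noise, with a chi-square of 3.25 per degree of freedom over 13663 genes. This does not show whether they came from separate cultures. Across 12106 genes averaging 1 CPM or more, log2(CPM + 0.5) of the 2 libraries had a Pearson r of 0.997 and a Spearman rho of 0.998, as a description across genes that share both libraries. Of these genes 14 were 2-fold apart.

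Among genes averaging 10 CPM or more, the largest ratios between the libraries were as follows. BANP, a protein of the nuclear matrix, had 14.4 and 8.25 CPM, the basement membrane proteoglycan HSPG2 41.7 and 28.1 CPM and L3MBTL3 18.3 and 12.8 CPM, all higher in replicate 1. TNFAIP3, a brake on NF-kappaB, had 9.62 and 14.3 CPM, the chemokine IL8 9.89 and 14.1 CPM, and the splicing kinases CLK4 and CLK1 11.7 and 17.4 CPM and 56.1 and 79.2 CPM, all higher in replicate 2. Some genes had counts in a single library. MIR663B had 117 and 0 counts, NBPF16 0 and 39 and APOBEC3A 0 and 24. These were picked out after their values were seen, and NBPF16 and APOBEC3A each have close copies.

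A small difference between the libraries moved with gene length and touched several groups together. The relation was drawn over 9247 genes averaging 10 CPM or more, split into 5 classes of exon length after the values were seen. The median log2 ratio of replicate 2 over replicate 1 was 0.02 in the shortest class and -0.05 in the longest, and 61.3% and 31.5% of their genes were higher in replicate 2 (Spearman rho -0.245 across genes, which share both libraries). Of all 9364 genes averaging 10 CPM or more, 4618 were higher in replicate 2. Of 80 cytosolic ribosomal protein genes at 1 CPM, 68 were higher in replicate 2, and of 76 mitochondrial ones 57 were, both by a median log2 ratio of 0.04. Of 32 proliferation genes 26 were, by a median log2 ratio of 0.065, and of 12 cytokines 11, by 0.31. Other groups went the opposite way, with 3 of 14 integrins and 8 of 27 receptor tyrosine kinases at 1 CPM higher in replicate 2. MKI67 and FN1 were lower in replicate 2. The part of length in these group differences was not tested.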

How the data were processed

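Raw counts per gene symbol were deposited by the authors in 1 table. The submitters' processing notes name TopHat 1.3.3, HTSeq, DESeq and hg19. The annotation, the strand setting and the treatment of reads with several matches are not given in the sources used here, so reads of overlapping and antisense genes cannot be told apart.

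CPM were counts over the plain library total. Exon lengths (union of exons) and gene types came from GENCODE 29 (GRCh38) by symbol, for 92.6% of the table, though counts were made on hg19. The per-kb order used genes of at least 300 bases. Promoters came from RefSeq. Spread was edgeR 4.0.16's common dispersion in R 4.3.3, tested on simulated data; edgeR and DESeq2 1.42.0 gave alternative scaling factors. Tables and plots used Python 3.11.15, numpy 2.4.6, scipy 1.17.1, pandas 2.3.3 and matplotlib 3.10.9.

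No groups were compared. Named genes were the first 20 on each scale, up to 5 highest per kb and 3 at 0 per list, the 5 largest ratios each way between libraries, and a list of breast cancer genes. Others named were chosen after their values were seen. The members and the 92 lists and families were chosen with earlier results of these data known. Some genes that the rule names are not reported here.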

Additional observations from a re-analysis of the deposited data

How the results depend on the processing

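TMM or DESeq2 factors left the number of genes at 1 CPM (11974) and the number 2-fold apart (14) as they were and moved 34 named levels by at most 0.0252%; a share within a library cannot change with them. Thresholds of 0.5 and 2 CPM in both libraries gave 12617 and 11306 genes. Of 92 lists and families, 83 and 85 kept a count within 1.5 times. Those that did not were lists with few members at 1 CPM, together with G protein-coupled receptors (24 and, at 2 CPM, 15), replication-dependent histones (6 and, at 0.5 CPM, 10), microRNAs (10 and 18) and small nucleolar RNAs (23, with 53 at 0.5 CPM and 10 at 2 CPM). The number 2-fold apart was 760 with at least 1 count in each library and 0 at a mean of at least 10 CPM. The share of the first 10 genes was 4.83% on CPM per kb. With 3 counts or fewer taken as silent, 9150 genes were. Leaving out a replicate gave 12071 to 12127 genes at 1 CPM, 7632 to 7744 at 0 counts and a first-10 share of 3.03%. With the longest transcript as length, 17 of the first 20 genes per kb stayed. Depth limits statements on silence to levels above 0.136 CPM. No paired analysis was possible because only 1 group was used.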
